A study of Mus musculus with 2 samples.

Results

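DNA repair and checkpoint genes were followed in regenerating mouse liver as a list of 36 genes, chosen by symbol, and all 36 had a row among the 33224 gene symbols of the deposited expression table. The list holds genes of homologous recombination, DNA end processing, junction resolution, the Fanconi anemia pathway, mismatch repair, base excision, post-replication repair and the checkpoint kinases. It was compiled with earlier results of these data known, and the study's text names DNA repair among the E2f targets it followed, so the direction is not independent evidence. Hepatic RNA of male C57BL/6 mice, wild-type (WT) or PPARβ-null (KO), was sequenced 48 hr after partial hepatectomy (PH), the removal of a large part of the liver. The sample labels give an age of 4 months for both libraries and the series' design text 3 months, and all mice could feed freely. KO mice lack the nuclear receptor PPARβ, which is encoded by Ppard. How the allele was made, and whether a library came from 1 mouse or from a pool, is not given in the sources used here. There was 1 library per genotype, so no value carries an error between mice and no test across samples was possible. The file headers put the libraries on different lanes, and lane, mouse and genotype cannot be told apart. The values are FPKM, that is sequenced fragments divided by exon length and by the library's mapped fragments, estimated by the authors for each locus, and they can be compared between genes because they are per length.

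Homologous recombination copies an intact sister strand to mend a broken one, and it acts mainly while DNA is being replicated. Fanconi anemia proteins unhook links between the strands and hand the damage to recombination. Mismatch and base excision repair remove wrong or damaged bases, and the kinases Atm and Atr, with Chek1 and Chek2 below them, hold the cell cycle when DNA is broken or replication stalls. In the adult liver few cells divide, and after PH hepatocytes re-enter the cell cycle, so many of these genes are known to be transcribed together with the replication genes.

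Below, a fold is the WT level divided by the KO level, and the brackets after it hold its 95% counting interval. Ppard itself measured 2.67 FPKM in WT against 2.42 in KO, 1.10-fold (0.965 to 1.26). The level of the whole locus therefore did not check the genotype labels. Counting intervals are exact binomial (Clopper-Pearson) intervals from estimated fragments. They cover counting error only, not the difference between mice. An FPKM of 1 on a transcript of 1 kb corresponded to an estimated 51.7 fragments for WT and 56.7 for KO. Markers of hepatocytes were abundant, with a summed FPKM of 10113 in WT and 12460 in KO over 5 of 6 listed genes. Summed markers were lower in KO for stellate cells (36.5 and 14.4 over 6 genes), endothelial cells (26.6 and 15.7 over 5 genes), macrophages (41.2 and 26.5 over 6 of 7 genes) and neutrophils (12.9 and 6.93 over 6 genes, with Ly6g and Mpo at 0 in both). The sums were closer for erythroid markers (295 and 252 over 5 genes). All 5 cholangiocyte markers were lower in KO, 2 of them more than 2-fold, while their sums (29.8 and 25.7) were carried by Spp1, at 24.5 in WT and 22.7 in KO. Lymphocyte markers were near 0 in both libraries (0.622 and 0.351 over 6 genes). Of 5 pancreatic acinar markers only Cela1 was above 0, with 8.77 in WT and 18.8 in KO. The part of these cell types in the results below was not tested. In whole liver, fewer cells that express a gene and less of its RNA per cell cannot be told apart.

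Most of the repair and checkpoint genes were lower in the KO library. The FPKM was lower in KO for 35 of the 36 genes, and Mus81 was the exception. Most genes shared that direction, since 11768 of the 15727 gene symbols that passed the filter were lower in KO by any amount. More than 2-fold lower were 23 of the 36 genes, where 13.4% of the 15727 gene symbols whose mean FPKM reached 0.1 were past the same line. None of the 36 was more than 2-fold higher in KO, as were 2.79% of all gene symbols. All 36 passed the filter on mean FPKM. Their median log2 KO/WT, with 0.1 FPKM added to both libraries, was -1.45, while the median over all gene symbols was -0.25. At a line of 1.5-fold 29 genes were lower in KO, against 26% of all gene symbols, and at 3-fold 17 genes, against 6.36%. More than 10-fold lower were Fancd2, Exo1, Bard1, Chek1 and Blm, which makes 5 genes, against 1.88% of all gene symbols. The members' mean FPKM ran from 0.442 to 8.90. Of the 7692 gene symbols in that range, 14% were more than 2-fold lower and 2.09% more than 2-fold higher in KO, a background chosen after seeing the data.

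The 36 genes were much closer to each other in WT than in KO. In the WT library the FPKM ran from 0.868 (Exo1) to 11.3 (Parp1), a 12.99-fold span with a median of 2.61. In the KO library it ran from 0.0158 (Exo1) to 7.05 (Ung), a 447-fold span with a median of 0.634. An FPKM of at least 1 was reached by 34 genes in WT and by 16 in KO, and 10 genes were below 0.3 in KO. Of those 10 genes, 9 also lay below the WT median, and Chek1 was the exception.

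**Figure D1:**
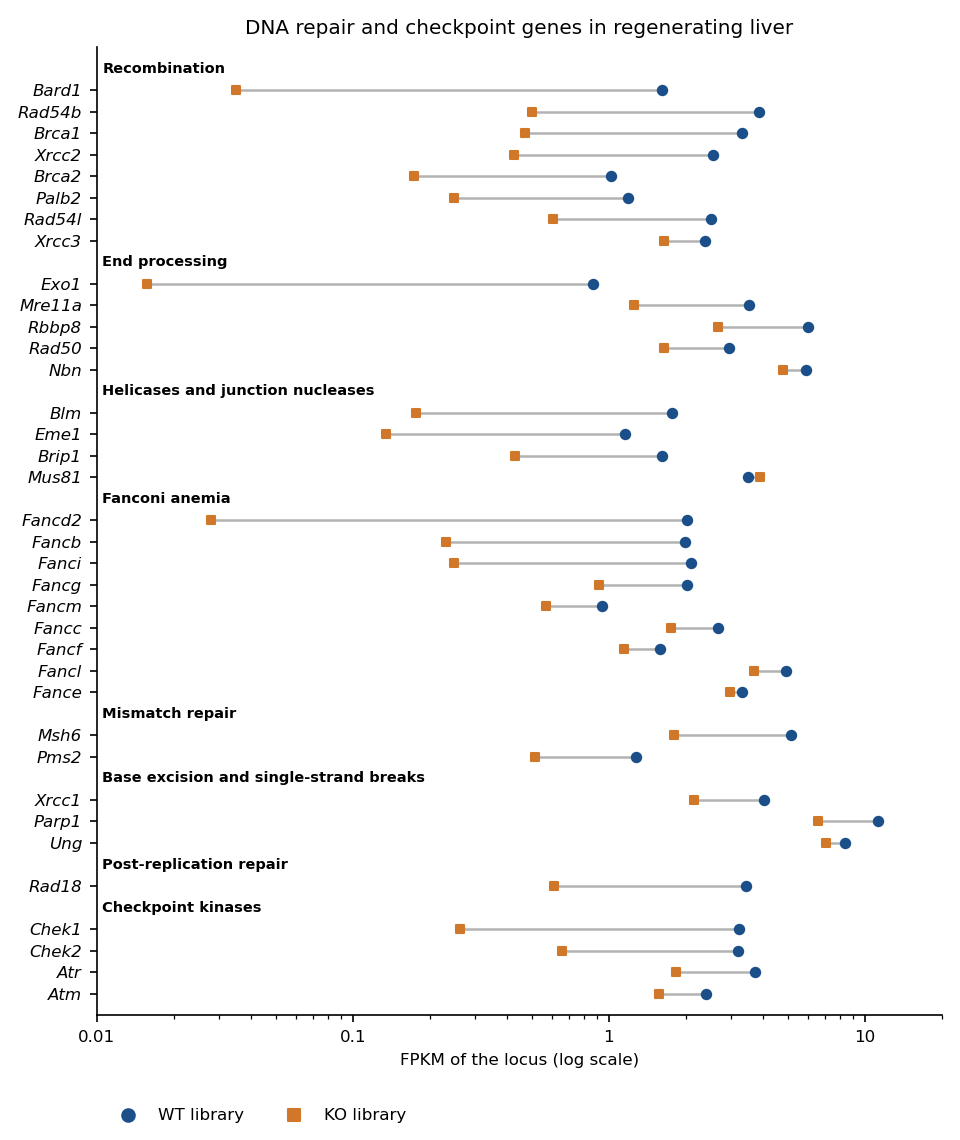
FPKM of each of the 36 genes in the WT library (blue circles) and the KO library (orange squares), on a log axis and grouped by role, with a grey line joining the values of a gene. There was 1 library per genotype and hence no error bar. Fancd2, Exo1 and Bard1 have the longest lines, and Mus81 is the gene whose KO value lies to the right of its WT value.

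Promoter sequence was read for these genes because the study followed E2f transcription factors, which are known to bind sites of the form TTTCCCGC. Of the 36 genes, 29 matched the RefSeq promoter table (GRCm38.p6), which gives 250 bases before and 50 bases after each gene's start. An E2F motif was searched on both strands as TTTCCCGC, TTTCGCGC, TTTGGCGC and TTTGCCGC, and counted only where all its letters lay in the window. The Chek1 window ends in gcgggaa, so a site that ran over its edge would be missed. Bard1, Brca2, Chek2, Fancg and Msh6 held the motif. These 5 were among the 18 matched genes that were more than 2-fold lower in KO, and 0 of the other 11 matched genes held one. At the shares that follow, few of 11 genes would hold one, so that 0 does not set the 11 apart. The share with the motif was 2.6% of all 27025 genes of the table, 4.5% of the 9689 that passed the expression filter and 8.03% of the 1258 of these that were more than 2-fold lower in KO. The 5 windows are shown 5′ to 3′ on the gene's strand so that the motif, in capitals, can be seen in its surroundings. Bard1 lies at chr1:71102923-71103222 (minus strand), Brca2 at chr5:150522371-150522670 (plus), Chek2 at chr5:110839733-110840032 (plus), Fancg at chr4:43010252-43010551 (minus) and Msh6 at chr17:87974800-87975099 (plus), all on GRCm38.p6.
Bard1: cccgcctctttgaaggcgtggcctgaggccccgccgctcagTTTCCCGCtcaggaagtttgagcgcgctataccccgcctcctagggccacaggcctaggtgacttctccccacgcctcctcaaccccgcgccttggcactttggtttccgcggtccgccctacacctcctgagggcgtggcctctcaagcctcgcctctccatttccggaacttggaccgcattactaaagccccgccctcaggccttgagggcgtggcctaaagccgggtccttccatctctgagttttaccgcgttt
Brca2: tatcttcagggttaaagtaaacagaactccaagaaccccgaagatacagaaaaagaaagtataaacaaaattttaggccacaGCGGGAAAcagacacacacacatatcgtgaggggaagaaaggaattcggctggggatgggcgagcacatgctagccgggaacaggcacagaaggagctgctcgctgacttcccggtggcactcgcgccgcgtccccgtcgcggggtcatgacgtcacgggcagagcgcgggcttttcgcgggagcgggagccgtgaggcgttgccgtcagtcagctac
Chek2: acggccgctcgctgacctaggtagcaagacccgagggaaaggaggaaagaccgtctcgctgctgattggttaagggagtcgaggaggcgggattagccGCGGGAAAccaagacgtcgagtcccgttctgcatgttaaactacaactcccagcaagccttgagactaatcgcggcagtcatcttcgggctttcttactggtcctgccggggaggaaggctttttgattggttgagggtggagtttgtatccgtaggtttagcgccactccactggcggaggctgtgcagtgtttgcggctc
Fancg: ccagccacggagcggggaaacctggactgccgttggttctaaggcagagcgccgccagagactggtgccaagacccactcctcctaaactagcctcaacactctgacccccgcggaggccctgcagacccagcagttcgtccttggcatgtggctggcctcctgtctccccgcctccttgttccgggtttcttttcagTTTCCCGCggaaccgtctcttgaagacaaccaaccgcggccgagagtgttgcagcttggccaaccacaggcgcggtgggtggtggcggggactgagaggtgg
Msh6: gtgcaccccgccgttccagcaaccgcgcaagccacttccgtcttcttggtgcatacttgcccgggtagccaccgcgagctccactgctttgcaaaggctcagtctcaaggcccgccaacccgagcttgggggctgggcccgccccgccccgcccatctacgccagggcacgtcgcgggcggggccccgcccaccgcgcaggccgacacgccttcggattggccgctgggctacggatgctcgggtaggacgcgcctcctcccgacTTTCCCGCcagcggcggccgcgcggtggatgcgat

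Bard1, Fancg and Msh6 held the motif as TTTCCCGC, and Brca2 and Chek2 on the opposite strand as GCGGGAAA. Counted from the annotated start, its first base lay at -209 in Bard1, -168 in Brca2, -152 in Chek2 and -52 in Fancg, and at 15 in Msh6. A CHR motif, TTTGAA, which marks many late cell cycle genes, was searched in the same way on both strands, and the motifs overlapped nowhere in these 5 windows. The CHR motif was held by Bard1 and Eme1, which makes 2 of the 29 genes. The share was 14.9% of the genes that passed the filter and 20.4% of those more than 2-fold lower in KO. A match is a description of these letters, and binding was not measured. Rad54b, Xrcc2, Exo1, Nbn, Rad50, Rbbp8 and Fancd2 were not among the matched genes.

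Recombination genes were lower in KO almost throughout. Of these 8 genes 7 were past 2-fold, and their median log2 ratio of KO to WT was -2.18. Bard1 (chromosome 1, 71074072 to 71149720), the partner of Brca1 in a ubiquitin ligase that favours recombination, measured 1.62 FPKM in WT against 0.0350 in KO. The KO value rested on an estimated 11.2 fragments, and the gene stood at 46.2-fold (26.1 to 95.1). For Brca1 (chromosome 11, 101349958 to 101413418) the values were 3.30 FPKM in WT against 0.471 in KO, 7.01-fold (5.96 to 8.24). The intervals of these partners did not overlap, so Bard1 differed more than Brca1 beyond counting error. In WT the level of Brca1 was above that of Bard1, and it was so in KO as well.

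Brca2 acts on single-stranded DNA at the start of recombination, and Palb2 ties it to Brca1. Brca2 measured 1.02 FPKM in WT against 0.174 in KO, and Palb2 measured 1.19 against 0.248. Their folds, 5.84 (4.72 to 7.24) and 4.80 (3.52 to 6.54), were not separated by counting error. The DNA translocases Rad54l and Rad54b, which act during strand invasion, stood at 4.16-fold (3.47 to 4.98) and 7.72-fold (6.15 to 9.93). Rad54l measured 2.52 FPKM in WT against 0.605 in KO, and Rad54b 3.87 against 0.501. The gene that was higher in WT was thus the lower of these paralogs in KO. Those KO values rested on an estimated 157 and 81.5 fragments, and whether their order exceeds counting error was not tested.

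Xrcc2 and Xrcc3, which belong to separate recombination complexes, behaved differently. Xrcc2 measured 2.55 FPKM in WT against 0.424 in KO, 6.01-fold (4.72 to 7.76). Xrcc3 had 2.38 FPKM in WT against 1.64 in KO, 1.45-fold (1.21 to 1.73), and it was the one recombination gene within 2-fold. With the median in place of the longest transcript length its interval widened to 0.991 to 2.19 and included equality. The exons of Xrcc3 overlap those of Klc1 on the opposite strand, and the library kit named in the labels is not stated to keep strand.

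End processing genes were graded, with 3 of 5 genes more than 2-fold lower in KO and a median log2 ratio of KO to WT of -1.15. Exo1, the exonuclease of long-range resection and of mismatch repair, was nearly undetected in KO. It measured 0.868 FPKM in WT against 0.0158 in KO, the latter from an estimated 4.92 fragments, and the fold was 55.1 with a wide interval of 22.9 to 168. The Mre11a, Rad50 and Nbn proteins form the complex that first binds a broken end. Their folds were graded, at 2.81 for Mre11a (2.50 to 3.16), 1.80 for Rad50 (1.605 to 2.02) and 1.23 for Nbn (1.11 to 1.36). These intervals did not overlap, but with the median in place of the longest transcript length Mre11a (2.04 to 3.86) and Rad50 (1.51 to 2.15) were no longer separated. Nbn had the highest level of these subunits in both libraries, with 5.88 FPKM in WT against 4.79 in KO. Mre11a was at 3.53 FPKM in WT against 1.26 in KO, and Rad50 at 2.95 FPKM in WT against 1.64 in KO, so the order of these subunits was not the same in the libraries. Rbbp8, which switches on the Mre11a nuclease, had 6.01 FPKM in WT against 2.66 in KO, 2.26-fold (2.03 to 2.52).

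Of the 4 helicases and junction nucleases, 3 were more than 2-fold lower in KO. The helicase Blm, which takes apart joined recombination intermediates, measured 1.77 FPKM in WT against 0.177 in KO, 10.0-fold (7.40 to 13.7). Brip1, a helicase that binds Brca1 and is also a Fanconi anemia gene, had 1.61 FPKM in WT against 0.429 in KO, 3.75-fold (3.14 to 4.46). Eme1 and Mus81 are the subunits of 1 endonuclease, and their values went apart. Eme1 had 1.15 FPKM in WT against 0.135 in KO, 8.56-fold (5.17 to 14.3), while Mus81, the catalytic subunit, had 3.51 FPKM in WT against 3.88 in KO, 0.903-fold (0.786 to 1.04). As deposited, a difference of Mus81 was thus not detectable at this depth, but with the libraries scaled to equal upper quartiles it stood at 0.746-fold (0.649 to 0.858), higher in KO beyond counting error. Eme1 shares exon bases with Lrrc59 and Mrpl27 on the opposite strand, while Mus81 shares none with another annotated gene.

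**Figure D2:**
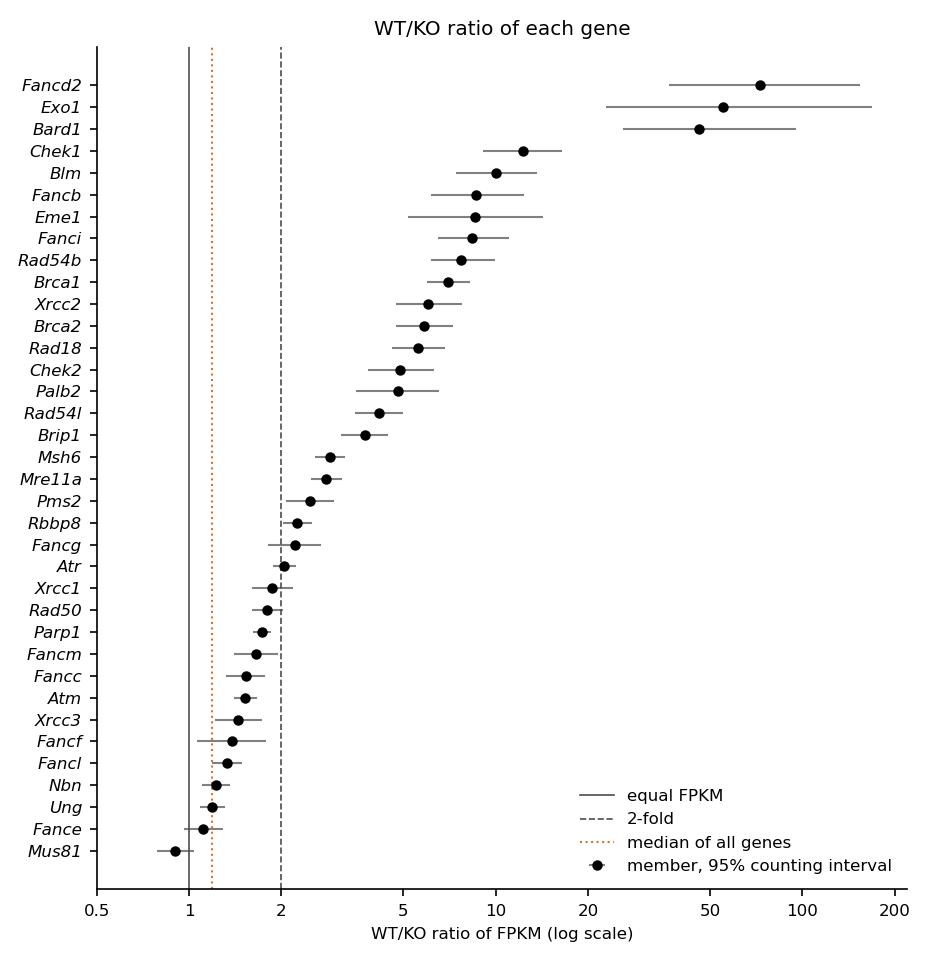
WT/KO ratio of FPKM of each of the 36 genes on a log axis, sorted by ratio, with the 95% counting interval as a bar. The solid line marks equal FPKM, the dashed line 2-fold and the dotted line the median of all gene symbols. Fancd2, Exo1 and Bard1 stand apart at the top, and the intervals of Fance and Mus81 include 1.

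The Fanconi anemia genes spanned nearly the whole range of the list. All 9 were lower in KO, 4 of them more than 2-fold, and the median log2 KO/WT was -0.64. Fancd2 (chromosome 6, 113481676 to 113550709) and Fanci (chromosome 7, 86536815 to 86611248) encode the clamp that closes on DNA once the pathway is switched on. Fancd2 measured 2.03 FPKM in WT against 0.0278 in KO, the latter from an estimated 8.69 fragments, and its fold of 72.9 (36.8 to 155) was the highest of the 36 genes. With the median transcript length the KO value would rest on an estimated 1.18 fragments and the interval would run from 15.1 to 3464. Fanci was nearly level with it in WT at 2.08 FPKM but stood at 0.248 in KO, 8.39-fold (6.48 to 11.1). The intervals of these partners did not overlap. The loci of both are wider than the annotated genes, as holds for 17 of the 36 genes in all, Fancb and Fancf among them. The locus of Fancb is also that of Mospd2, a gene on the opposite strand. Exons of Polg overlap those of Fanci on the opposite strand, and exons of 4931417G12Rik those of Fancd2.

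The core complex attaches ubiquitin to that clamp. Fancb, which holds the catalytic module together, measured 1.99 FPKM in WT against 0.230 in KO, 8.63-fold (6.15 to 12.3). Fancl, the ubiquitin ligase itself, had 4.91 FPKM in WT against 3.69 in KO, 1.33-fold (1.19 to 1.49). Fancg had 2.02 FPKM in WT against 0.913 in KO, 2.21-fold (1.81 to 2.70), so it was past 2-fold with an interval that reached below that line. Fancm, the translocase that brings the complex to DNA, had 0.939 FPKM in WT against 0.567 in KO, 1.66-fold (1.41 to 1.95). Fancc (2.68 FPKM against 1.75, 1.53-fold, 1.32 to 1.77) and Fancf (1.58 against 1.14, 1.38-fold, 1.06 to 1.78) differed less, and exons of Fancf overlap those of Gas2. Fancb was thus the only core complex gene of this list whose interval lay wholly above 2-fold.

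Fance is of interest by its position. It lies on chromosome 17 from 28450475 to 28463513 (NCBIM37), 12060 bases beyond the annotated end of Ppard on the same strand. It measured 3.31 FPKM in WT against 2.97 in KO, 1.11-fold (0.962 to 1.29). No difference of this core complex gene was detectable at this depth, next to the targeted locus.

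Of the 4 checkpoint kinases, 3 were more than 2-fold lower in KO, and the kinases that act downstream differed more than those at the apex. Chek1 (chromosome 9, 36516067 to 36534243), which Atr activates when replication stalls, measured 3.22 FPKM in WT against 0.263 in KO, 12.2-fold (9.11 to 16.5). Chek2, which Atm activates, had 3.19 FPKM in WT against 0.656 in KO, 4.86-fold (3.84 to 6.28). The effector kinases were level with each other in WT, and their ratios were separated by counting error. Atr had 3.73 FPKM in WT against 1.82 in KO, 2.04-fold (1.88 to 2.23), and Atm had 2.39 FPKM in WT against 1.56 in KO, 1.53-fold (1.40 to 1.67). The interval of Atr included 2, so its distance from that line was within counting error. With the libraries scaled to equal upper quartiles it stood at 1.69-fold (1.55 to 1.84), no longer past 2-fold.

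Genes that act on single bases or nicks included the most abundant of the list, Parp1 and Ung. None of the 3 base excision genes was more than 2-fold lower in KO, and their median log2 KO/WT was -0.78. Parp1, the sensor of nicks, measured 11.3 FPKM in WT against 6.53 in KO, 1.73-fold (1.61 to 1.85). Xrcc1, the scaffold of nick repair, had 4.03 FPKM in WT against 2.16 in KO, 1.87-fold (1.604 to 2.19). Ung, which cuts uracil out of DNA, had 8.39 FPKM in WT against 7.05 in KO, 1.19-fold (1.08 to 1.31), which is close to the median of all gene symbols. Of the mismatch repair genes, Msh6, which finds mismatches, had 5.16 FPKM in WT against 1.79 in KO, 2.88-fold (2.57 to 3.22). Pms2 shares its row with Rsph10b2, and that joint locus had 1.28 FPKM in WT against 0.517 in KO, 2.47-fold (2.07 to 2.97). With the median transcript length its interval widened to 1.69 to 3.65 and included 2. Rad18, the ubiquitin ligase that marks PCNA at stalled forks, had 3.43 FPKM in WT against 0.613 in KO, 5.59-fold (4.59 to 6.83).

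Across the whole list the counting interval of the ratio lay above 1 for 34 genes and above 2 for 21. It included 2 for Atr, Fancg, Rad50 and Xrcc1, which makes 4 genes. Such intervals were not computed for all gene symbols, whose median log2 KO/WT was itself -0.25. Besides the overlaps already named, exon bases on the opposite strand are shared by Rad54l with Lrrc41, Rad54b with Gm11832 and Fancc with 2010111I01Rik. They are also shared by Fancl with Vrk2, by Msh6 with Fbxo11 and by Atr with 1700065D16Rik and Gm16794. Fragments of such pairs cannot be told apart without strand. Of the 24 genes that share neither a row nor exon bases with another annotated gene, 15 were more than 2-fold lower in KO and the median log2 KO/WT was -1.55, a subset chosen after seeing the data. Scaling the libraries to equal upper quartiles moved the median of all gene symbols to 0.01 and put Fance and Ung, next to Mus81, on the higher side in KO. On that scale 20 members were more than 2-fold lower, against 8.94% of all gene symbols, and 4.89% of all gene symbols were more than 2-fold higher. The members that left the count were Rbbp8 (1.86-fold), Fancg (1.83) and Atr (1.69). The counting interval then lay above 1 for 30 genes, included 1 for Nbn, Fance, Fancf, Fancl and Ung, and lay below 1 for Mus81.

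Many repair genes start back to back with a neighbour on the other strand, so that a shared stretch of promoter lies between them. Such a head-to-head neighbour, starting within 1000 bases upstream, was annotated for 11 of the 36 genes, and 9 of these neighbours were protein-coding genes. None of these 9 was more than 2-fold lower in KO and none more than 2-fold higher, where 13.4% and 2.79% of all gene symbols were past those lines. At those shares few of 9 genes would lie past either line, so the count does not set the neighbours apart from other genes. Fancd2 starts 44 bases from Tmem111, which measured 29.2 FPKM in WT against 22.1 in KO, 1.32-fold (1.25 to 1.39) beside 72.9 for Fancd2. Brca1 starts 194 bases from Nbr1, which had 53.0 FPKM in WT against 56.3 in KO, 0.942-fold (0.920 to 0.964) beside 7.01 for Brca1. Tmem111 and Nbr1 were thus far more abundant than Fancd2 and Brca1, and differed much less between the libraries.

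The neighbours of other members past 2-fold ranged from level to lower in KO. Pomgnt1, 150 bases from Rad54l, stood at 1.02-fold (0.9497 to 1.09), and Dctn5, 95 bases from Palb2, at 1.12-fold (1.05 to 1.195). Mospd2 beside Fancb had 1.39 (1.297 to 1.49), Hscb beside Chek2 had 1.46 (1.03 to 2.09), and Aimp2 beside Pms2 had 1.52 (1.33 to 1.72). Where the member was within 2-fold, the neighbour was level with it or lower in KO. Npat, 307 bases from Atm, stood at 1.68-fold (1.48 to 1.92), and Zfyve21, 297 bases from Xrcc3, had 1.96 (1.80 to 2.13), beside 1.45 for Xrcc3. The non-coding neighbours were 4632419I22Rik beside Brip1, with 1.70-fold, and Gm16598 beside Rad18, with 0.0497 FPKM in WT against 0.0397 in KO.

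**Figure D3:**
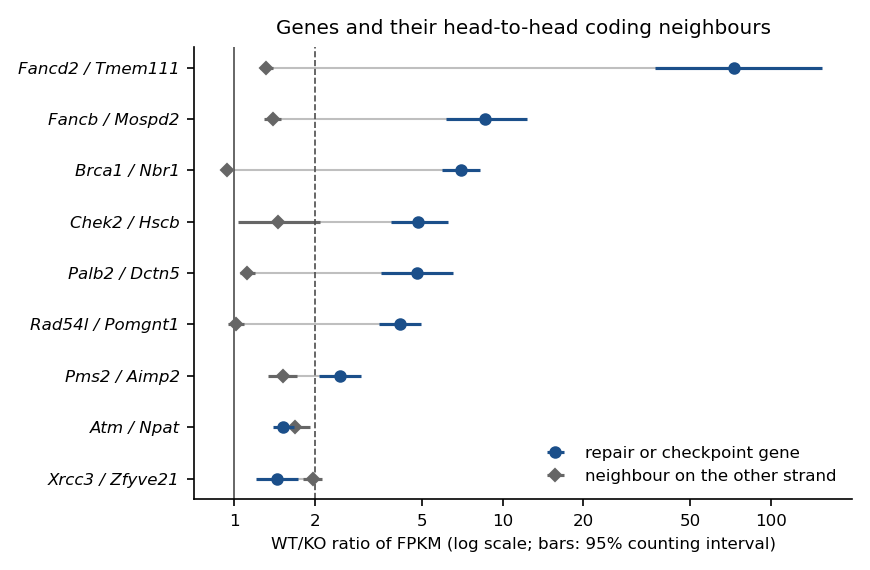
WT/KO ratio of FPKM, on a log axis, of 9 repair or checkpoint genes (blue circles) and of the protein-coding gene that starts head to head with each (grey diamonds), with 95% counting intervals as bars. The solid line marks equal FPKM and the dashed line 2-fold. All 9 neighbours lie left of the dashed line, while 7 of the repair or checkpoint genes lie right of it.

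Other repair genes, listed by textbook role, were read in the same libraries to place the members in their pathways. Of 103 listed symbols 99 had a row and 97 passed the filter. More than 2-fold lower in KO were 22 of these (22.7%), and 1 was more than 2-fold higher. The median log2 ratio of KO to WT was -0.28, near the -0.25 of all gene symbols. The genes past the line were unevenly spread over the pathways. None of 9 end joining genes and none of 18 nucleotide excision genes was more than 2-fold lower in KO, with medians of -0.34 and -0.23. That end joining list leaves out Polq, which was listed under translesion synthesis and stood at 60.9-fold. Xrcc6, a subunit of the Ku ring that holds broken ends for joining, measured 9.74 FPKM in WT against 6.52 in KO, 1.49-fold. Nhej1 (1.57) and Polm (0.985) were the ends of the range in that list.

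Further recombination and Fanconi anemia genes held values at both ends. Of 12 that passed the filter 6 were more than 2-fold lower in KO and 1 was higher. Rad51ap1, a recombination accessory factor, measured 2.92 FPKM in WT against 0.0409 in KO, 71.4-fold (31.4 to 230). Usp1, which removes ubiquitin from Fancd2, had 12.5 FPKM in WT against 6.06 in KO, 2.07-fold (1.93 to 2.22). Rad51l1, a further recombination gene, went the other way, with 2.35 FPKM in WT against 15.6 in KO, which is 6.65-fold higher in KO (interval 5.76 to 7.70). No other annotated gene lies in its locus (chromosome 12, 80398338 to 80915363). That row ends beyond the annotated end of the gene, and which exons the fragments came from was not analysed here.

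Base excision genes outside the members were mostly close to equal, and 4 of 19 were more than 2-fold lower in KO. Lig1, the ligase that also seals replication fragments, measured 12.1 FPKM in WT against 0.540 in KO, 22.4-fold (18.2 to 27.7). Its paralog Lig3, the partner of Xrcc1, had 5.23 FPKM in WT against 5.47 in KO, 0.957-fold (0.895 to 1.02). Exons of Lig1 overlap those of 6330408A02Rik and exons of Lig3 those of Rffl. Apex1, the most abundant of that list, stood at 1.70-fold. Of the other mismatch repair genes, Mlh3 stood at 1.03-fold.

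Checkpoint clamp and mediator genes held 7 of 21 more than 2-fold lower in KO. Clspn, the adaptor through which Atr reaches Chek1, measured 1.39 FPKM in WT against 0.0327 in KO, 42.4-fold (22.9 to 97.0). Timeless, counted among the 21, shares its row with the abundant gene Apon, and the joint value, 205 in WT and 263 in KO, does not describe it. Of 13 translesion synthesis genes 4 were more than 2-fold lower in KO, among them a gene that shares its row with another. Polq, the polymerase of end joining by short homology, had 0.978 FPKM in WT against 0.0160 in KO, 60.9-fold (29.8 to 138), while Mad2l2 had 16.3 FPKM in WT against 20.8 in KO, and the ubiquitin conjugating enzyme Ube2b, the partner of Rad18, had 55.5 FPKM in WT against 48.8 in KO, 1.14-fold. In nucleotide excision, Rad23b had the highest level (83.2 FPKM in WT against 72.6 in KO), and Xpa was at 3.45 FPKM in WT against 5.14 in KO, with exons that overlap those of Ncbp1.

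**Figure D4:**
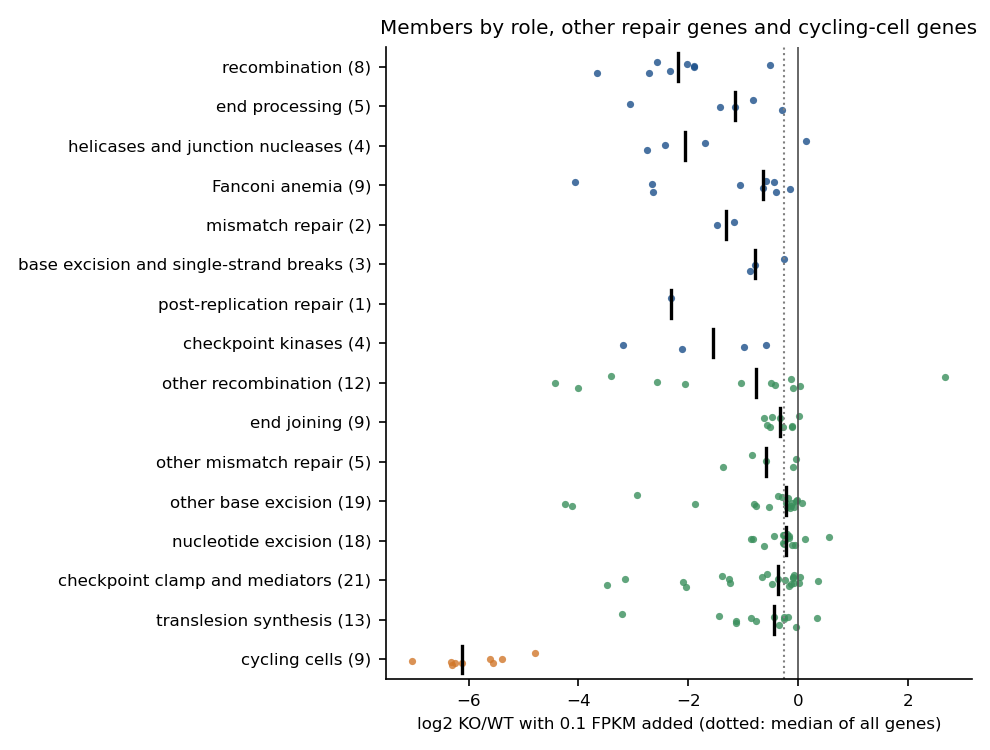
Log2 KO/WT, with 0.1 FPKM added to both libraries, of each gene (points) and its median per list (black bars), for the members by role (blue), the other repair genes (green) and genes of cycling cells (orange). The number of genes stands in parentheses, the solid line marks 0 and the dotted line the median of all gene symbols. Points of end joining (a list without Polq, which stands under translesion synthesis) and nucleotide excision stay near the dotted line. Those of cycling cells lie furthest to the left.

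Genes that mark dividing cells were lower in KO by more than nearly all of the repair genes. All 9 with a row were more than 2-fold lower, and their median log2 KO/WT was -6.12. The ratio was 246 for Mki67, 110 for Top2a (a row shared with SNORA32), 67.2 for Ccna2, 360 for Ccnb1, 96.6 for Cdk1, 198 for Plk1, 89.5 for Aurkb and 46.3 for Rrm2. Bub1 was at 2.68 FPKM in WT against 0 in KO, and the lower limit of its counting interval was 140-fold. Set against a floor of 3 fragments in the KO library, its fold would be 173. Fancd2 and Exo1 lay within the range of these folds, Bard1 at 46.2 was level with Rrm2 at its lower end, and the other 33 members lay below it. How far the number of dividing cells accounts for the repair genes was not tested.

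**Figure D5:**
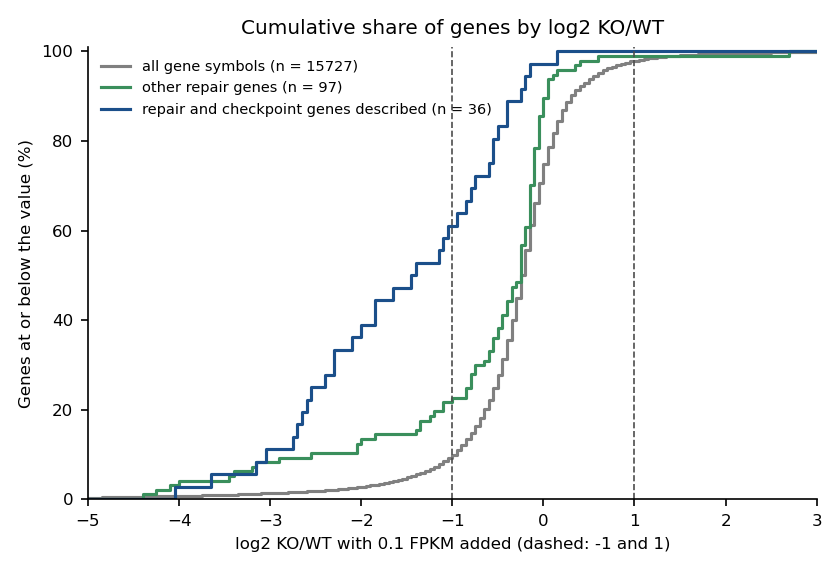
Cumulative share of genes, in percent, at or below each log2 KO/WT (0.1 FPKM added to both libraries) for all gene symbols with a mean FPKM of at least 0.1 (grey), the other repair genes (green) and the 36 repair and checkpoint genes described (blue). Dashed lines mark -1 and 1. The blue curve lies above the grey curve through most of the lower range, and none of its genes lies to the right of 1.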

How the data were processed

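Hepatic RNA libraries of regenerating WT and KO livers, 1 per genotype, were sequenced by the authors with 100 bp reads, which the methods call single end and the labels paired end. Per the submitters' processing notes and the methods, the authors used TopHat 2.0.0 on NCBI37 (mm9), Cufflinks 1.3.0 and Cuffdiff. The authors deposited FPKM for each of 38016 loci. The table also holds the authors' fold change, statistic, p-value, q-value and significance call, which were not used here.

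Rows marked HIDATA (21 loci) were left out, a joint row was given to each of its symbols, and rows of a symbol were summed. For log2 ratios 0.1 FPKM was added to both libraries as a pseudocount, so differences of weakly expressed genes come out too small, and a mean FPKM of at least 0.1 was required. A gene was counted past a ratio of 2 as deposited. No test was run, as there were no replicates. Loci, exons and transcript lengths were compared with GENCODE vM1 (NCBIM37), the build of the files, and coordinates count from 1. Depth was estimated from low values of 485 single-exon genes of at least 1500 nt, which pile up at whole fragments, and fragments from the longest annotated transcript. Promoters came from RefSeq on GRCm38.p6. The steps were tested on simulated data.

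The members and gene lists were chosen with earlier results of these data known. Named were every member, Ppard, all head-to-head neighbours, all cycling-cell genes and, of each other repair list, the genes with the lowest and highest log2 ratio and the highest mean FPKM. Some genes that this rule names are not reported here. Marker lists served for hepatocytes, macrophages, neutrophils, lymphocytes, erythroid, endothelial, stellate, cholangiocyte and pancreatic acinar cells. Alternatives covered the pseudocount, filter, scaling, fold, rows, row status, transcript length and promoter window. Computation used Python 3.11.15 with scipy 1.17.1, pandas 2.3.3 and numpy 2.4.6, and figures matplotlib 3.10.9.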

Additional observations from a re-analysis of the deposited data

How the results depend on the processing

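No replicate could be left out. No paired analysis was possible because there was only 1 library per genotype. With the 2-fold line drawn after adding 1 FPKM, 14 of the 36 members and 14 of the 97 other repair genes were lower in KO. This stands in place of 23 and 22, since such a pseudocount pulls low genes towards equality. The share of all gene symbols past that line was not computed. At 3-fold, 14 of the other repair genes were lower. Equal upper quartiles moved the median log2 KO/WT of the other repair genes to -0.0075 and that of the Fanconi anemia members to -0.40, and setting the median gene with a mean FPKM of at least 1 to equality gave -0.046 and -0.44. The members' own median lay between -0.84 and -1.55 under all alternatives tried, and no member was more than 2-fold higher in KO under any of them. In the 150 bases before the start, 1 of the 29 matched members held an E2F motif and 0 a CHR motif, in place of 5 and 2. That window is shorter by construction, and its edge cuts the motif of Chek2, whose first base lies at -152. In it, 2.54% of the genes that passed the filter held the E2F motif and 7.03% the CHR motif. The E2F share was 4.21% of the genes more than 2-fold lower in KO, so the members were not set apart in this window. With the median transcript length in place of the longest, the counting interval changed its side of 1 for Xrcc3, and the lower limit for Fancd2 moved from 36.8 to 15.1. Among 315 values of single members under alternatives, 243 stayed within the counting interval and 72 moved beyond it. Every member had 1 row, marked OK, so the settings for filter, rows and row status could not change its value. Those unchanged values are counted among the 243, and all 72 that moved came from the pseudocount and scaling settings. Levels below about 0.1 FPKM in KO, those of Fancd2, Exo1 and Bard1, rest on few fragments, and their ratios are known only within wide intervals.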
